A study of Homo sapiens with 6 samples.

Results

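The mitochondrial ribosome genes described here are 82 of the 19775 gene symbols on the array, read by 156 of the 41091 probe sets that list 1 gene (54613 probe sets in all, controls aside). A probe set is a group of short oligonucleotides on the array that are read together as 1 value. Members are defined by their symbols and not by a measured value, though with earlier results of these data known: every MRPL or MRPS gene with a number, the assembly factors ERAL1, MTG1 and MTG2, and the small subunit proteins DAP3 and PTCD3. Of the 82 symbols, 80 code for proteins. The others were an antisense transcript, MRPL20-AS1, and a pseudogene, MRPL45P2. A further 4 probe sets list a gene of this kind together with another gene and were not used.

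The samples came from SK-Hep1, a long-established human cancer line derived from an adenocarcinoma of the liver, and were measured on 6 single-colour arrays. In 3 of them the cells had been transfected with 20 nM of anti-miR-21, an oligonucleotide that binds and blocks the microRNA miR-21, using a lipid reagent. In the other 3, labelled mock, no anti-miR-21 was added, and the design text describes the mock compound as PBS. No unrelated oligonucleotide served as a control. Both groups had been plated 24 hours before transfection and were collected 16 hours after it. Replicates are labelled biological, with no word on separate cultures, so p values measure only the spread between these arrays. The labels give total RNA but also cite an Argonaute immunoprecipitation procedure for the harvest, and which fraction was hybridised is not settled by the sources used here. All cells are of 1 line, so the values describe that line.

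Mitochondria keep a small genome that encodes a few core proteins of oxidative phosphorylation, the process that makes most ATP in respiring cells. These proteins are made inside the organelle by a dedicated ribosome, whose proteins are all encoded in the nucleus and imported. The mitochondrial ribosome descends from a bacterial one, and besides homologues of bacterial ribosomal proteins it carries many proteins found only in mitochondria. Its subunits are put together with the help of GTPases and other assembly factors that bind the ribosomal RNA.

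The arrays measured messenger RNA for these proteins and neither the proteins nor mature miR-21. The sequence of miR-21, the molecule that the oligonucleotide is directed against, is shown as RefSeq gives it on GRCh38.p14 (chr17:59841273-59841294, plus strand), with the seed, bases 2 to 8, in capitals.
hsa-miR-21-5p: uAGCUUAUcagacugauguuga

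Array quality was similar in both groups. Correlations between arrays over the 22408 probe sets with a mean log2 value of at least 4 lay between 0.996 and 0.998 within groups and between 0.994 and 0.997 across them. On the first principal component (50.4% of the variance), anti-miR-21 replicate 1 lay, at 3.51, between the mock arrays, at -19.95 to -7.25, and the other anti-miR-21 arrays, at 19.63 and 20.11. The difference between the 3' and 5' control probe sets of ACTB, a measure of RNA integrity, was 0.491 to 0.628 in mock and 0.589 to 0.606 in anti-miR-21. SK-Hep1 showed bright mesenchymal transcripts, with VIM at 15.71, SPARC at 15.20 and CD44 at 14.77, but COL1A2, also on that list of 4, was below the limit at 2.51. The hepatocyte marker ALB stayed at 2.85 or less, and of 7 hepatocyte markers with probe sets only SERPINA1, at 11.92, was well above the limit of 4, with AFP and TF at 4.22 and 4.02. Of 7 endothelial markers, ENG was bright at 10.36 and TEK dim at 4.66, while PECAM1, CDH5, VWF, KDR and TIE1 were below the limit. Both leukocyte markers, PTPRC and CD3E, were below it too. Most defining hepatocyte transcripts were thus near the floor.

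The question addressed here was which genes of the mitochondrial ribosome changed in cells given anti-miR-21. ERAL1, a GTPase that assists assembly of the small subunit, fell 2.02-fold, and PTCD3, a small subunit protein, fell 1.58-fold. No other member passed the test in either direction. Of 131 member probe sets with a mean log2 value of at least 4, 2 were lower and none higher, or 1.53%, against 2.17% of all probe sets tested (1.07% lower and 1.1% higher). Of 81 member genes, each represented by its brightest probe set, 2 were lower and none higher (2.47%), against 2.13% of all 10848 genes (1.22% lower and 0.913% higher). The share of members that changed was therefore close to the background, and ERAL1 and PTCD3 are among the 5 genes that were added to the set by name. At an unadjusted p under 0.05, 11 member genes (13.6%) were lower and 1 (1.23%), MRPL1, was higher, against 11.3% lower and 6.84% higher of all genes. Calls are limma tests with Benjamini-Hochberg adjustment over all probe sets tested, at a threshold of 0.05. In a bulk sample, fewer cells of a kind and less RNA per cell cannot be told apart.

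ERAL1 binds the ribosomal RNA of the small mitochondrial subunit and acts as a chaperone while that subunit is assembled. Its single probe set, 212087_s_at, read log2 values of 9.87, 9.94 and 10.19 in mock and 8.88, 8.94 and 9.13 in anti-miR-21. The anti-miR-21 arrays lay well below the mock arrays, with no overlap. The group values were 10.00 ± 0.17 and 8.99 ± 0.13 (SD, n = 3), a log2 difference of -1.02 ± 0.104 SE (95% interval -1.26 to -0.77, limma adjusted p = 0.00936). Leaving out the second anti-miR-21 array just ended the call (log2 difference -0.99, limma adjusted p = 0.0503), and it held with any other array left out. The probe set carries the suffix that marks oligonucleotides shared by several transcripts, and no second probe set of ERAL1 was on the list, so no other probe set could be set beside it.

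PTCD3 contains pentatricopeptide repeats, a fold that binds RNA, and sits on the small subunit, where it is required for normal mitochondrial translation. Its brightest probe set, 217895_at, read 10.39, 10.51 and 10.53 in mock and 9.83, 9.78 and 9.84 in anti-miR-21. The anti-miR-21 arrays were tightly grouped and all below mock. The means were 10.48 ± 0.08 and 9.82 ± 0.03 (SD, n = 3), a log2 difference of -0.66 ± 0.057 SE (95% interval -0.80 to -0.53, limma adjusted p = 0.00522). The call held in each of the 13 alternative analyses, with adjusted p values from 0.00279 to 0.0489.

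The other probe sets of PTCD3 differed from it in size. A dim one, 228020_at, read 6.51, 6.55 and 6.83 in mock and 6.17, 5.51 and 5.74 in anti-miR-21. Its groups did not overlap either, with a log2 difference of -0.82 ± 0.174 SE (limma adjusted p = 0.0727). In 228590_at, mock replicate 1, at 7.77, stood apart from the other mock arrays, at 7.01 and 7.12, and the anti-miR-21 arrays read 6.95 to 7.02 (log2 difference -0.33, limma adjusted p = 0.42). In 228512_at the groups overlapped, and the log2 difference was -0.07 (limma adjusted p = 0.63). With all 4 probe sets averaged the log2 difference of PTCD3 was -0.47 (limma adjusted p = 0.0127). Which transcript or part of a transcript each probe set reads was not tested.

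**Figure D1:**
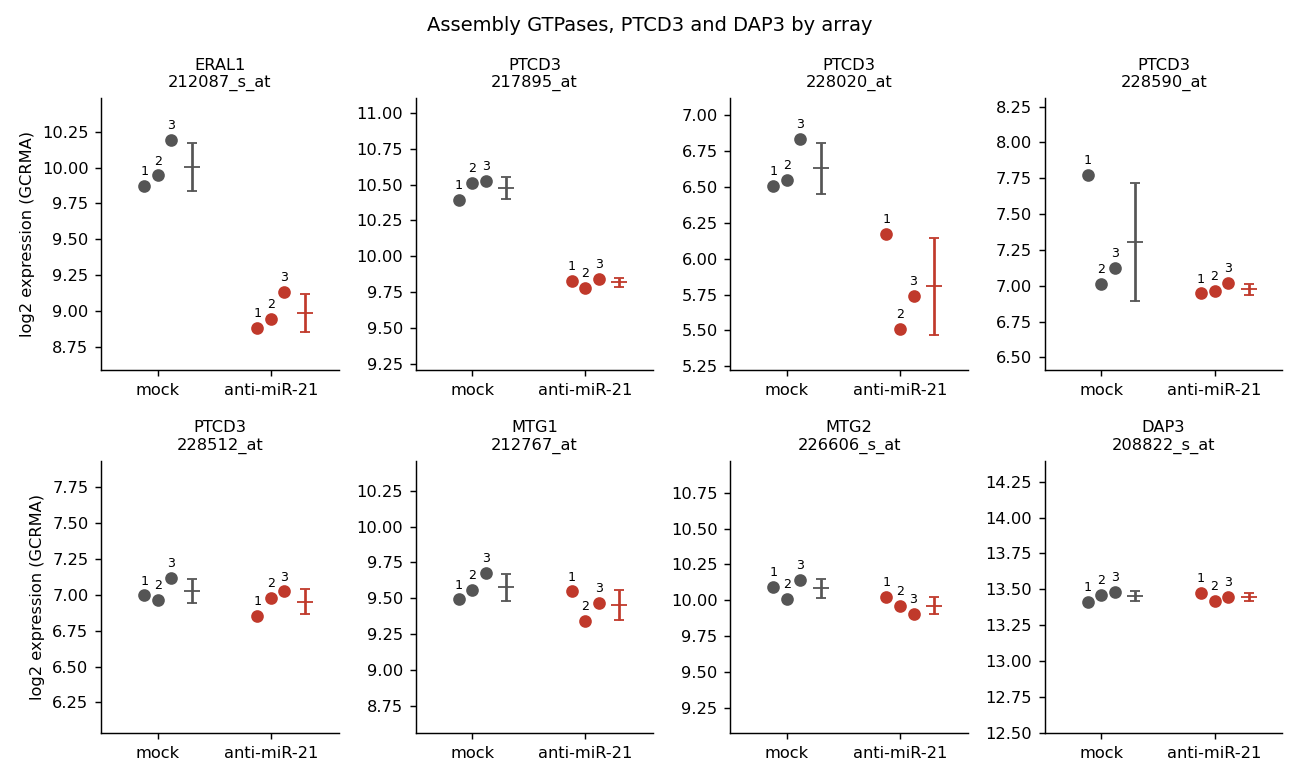
Log2 expression (y axis, the same span in every panel) of the assembly GTPases, all 4 kept probe sets of PTCD3 and the brightest of DAP3 in each mock (grey) and anti-miR-21 (red) array. Small numbers give the replicate, and bars show the mean ± SD of 3 arrays. The groups are apart in ERAL1 and in the PTCD3 probe sets 217895_at and 228020_at, and overlap in MTG1, MTG2 and DAP3.

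Promoters are shown for the genes that changed, as examples of the windows searched for motifs next. RefSeq windows on GRCh38.p14, 250 bases before the annotated start and the 50 bases from it (in capitals), lie at chr17:28854766-28855065 for ERAL1 and chr2:86105985-86106284 for PTCD3, both on the plus strand.
ERAL1: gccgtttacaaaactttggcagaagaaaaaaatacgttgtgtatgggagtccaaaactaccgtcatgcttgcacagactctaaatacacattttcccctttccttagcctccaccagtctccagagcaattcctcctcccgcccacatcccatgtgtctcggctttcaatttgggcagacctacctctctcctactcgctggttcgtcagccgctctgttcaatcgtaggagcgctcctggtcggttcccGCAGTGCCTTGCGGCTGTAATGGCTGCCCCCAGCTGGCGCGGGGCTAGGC
PTCD3: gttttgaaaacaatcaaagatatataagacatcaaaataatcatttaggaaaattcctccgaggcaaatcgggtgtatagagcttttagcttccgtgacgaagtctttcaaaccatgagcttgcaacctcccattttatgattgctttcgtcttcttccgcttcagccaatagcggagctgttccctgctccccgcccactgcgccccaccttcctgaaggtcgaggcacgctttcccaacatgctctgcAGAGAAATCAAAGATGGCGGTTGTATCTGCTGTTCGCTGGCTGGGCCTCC

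A promoter window was found for 73 of the 82 symbols, with 90 windows where a gene has several starts. Motifs were searched on both strands. The letters CCGGAAG, the core bound by ETS factors such as GABP, occurred in 32 member genes (43.8%), against 16.5% of 15842 protein-coding genes and 12.2% of all genes with a window. The letters AAGATGGCG, a form of the YY1 motif, occurred in 13 member genes (17.8%), against 3.21% of protein-coding genes and 2.14% of all genes. Both motifs occurred in 4 member genes, and their matches overlapped in none of them. The PTCD3 window holds the second motif, within the capitals, and not the first, whereas the ERAL1 window holds neither. The letters GCGCATGCG, from the NRF1 motif, occurred in 3 member genes (4.11%) and in 3.11% of protein-coding genes, and the E-box CACGTG in 12.3% and 10.9%. These are matches of letters in a fixed window and say nothing of binding.

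The genes beside ERAL1 and PTCD3 were looked up in RefSeq order, a choice made after the values were seen. FAM222B, which precedes ERAL1, had a brightest probe set at 10.26, 10.33 and 10.41 in mock and 10.01, 10.10 and 9.92 in anti-miR-21. Its arrays did not overlap, but the log2 difference of -0.32 did not pass (limma adjusted p = 0.073), and its other 2 probe sets were at -0.07 and -0.15. FLOT2, the next gene after ERAL1, was at 0.03 on its brighter probe set and 0.20 on the other (limma adjusted p = 0.898 and 0.353), and DHRS13, which follows it, was at 0.22 (limma adjusted p = 0.398). Before PTCD3 lies POLR1A, the largest subunit of RNA polymerase I, whose 3 probe sets had log2 differences of -0.24, -0.16 and -0.12 (limma adjusted p = 0.181 to 0.535). After PTCD3 come IMMT, a protein of the cristae, at -0.04 (limma adjusted p = 0.72), and MRPL35, itself a member. The brightest probe set of MRPL35 was at -0.09 and the dimmest at -0.07 (limma adjusted p = 0.454 and 0.801). The other, 222775_s_at, was at -0.29, from 9.75, 9.88 and 9.89 in mock to 9.58, 9.45 and 9.60 in anti-miR-21 (limma adjusted p = 0.0867). No neighbour listed here passed the test, and none had a difference as large as that of ERAL1 or PTCD3.

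The other assembly GTPases did not pass. MTG1, which acts late in assembly of the large subunit, read 9.49, 9.56 and 9.68 in mock and 9.55, 9.34 and 9.47 in anti-miR-21. These arrays overlapped, with a log2 difference of -0.12 ± 0.076 SE (95% interval -0.31 to 0.06, limma adjusted p = 0.452). MTG2, a GTPase of the same subunit, read 10.09, 10.01 and 10.14 in mock and 10.02, 9.96 and 9.91 in anti-miR-21 on its brightest probe set. The log2 difference was -0.12 ± 0.059 SE (95% interval -0.26 to 0.02, limma adjusted p = 0.343), with overlapping arrays. A second MTG2 probe set, at about 7.3 in both groups, was at 0.01 (limma adjusted p = 0.964), and its other 3 were below the limit. The interval of ERAL1 lay wholly below those of MTG1 and MTG2, although the difference between genes was not itself tested.

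DAP3, a GTP-binding protein of the small subunit first described as a mediator of cell death, read 13.41, 13.46 and 13.48 in mock and 13.47, 13.42 and 13.44 in anti-miR-21. The arrays overlapped fully, and the log2 difference was -0.01 ± 0.048 SE (95% interval -0.12 to 0.11, limma adjusted p = 0.959). Its second probe set was at 0.08 (limma adjusted p = 0.593). A dim one, of a type that can cross-hybridise, was at 0.27, with arrays at 4.73, 4.73 and 4.44 in mock and 4.75, 4.93 and 5.03 in anti-miR-21 (limma adjusted p = 0.257). The sign of DAP3 therefore depended on the probe set.

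The small subunit was represented by 27 genes. PTCD3 fell, none rose and 26 did not pass. Of the 27, 19 had a negative log2 difference and the median was -0.08, against -0.02 and 56.7% negative over all genes tested. The next lowest after PTCD3 was MRPS14, a homologue of a bacterial protein, at -0.23 ± 0.099 SE (limma adjusted p = 0.298), with arrays at 11.07, 11.31 and 11.38 in mock and 11.16, 10.93 and 11.00 in anti-miR-21. Those arrays overlapped because mock replicate 1 was low. MRPS26, found only in mitochondria, had the smallest p among the brightest probe sets that did not pass. It read 11.43, 11.49 and 11.51 in mock and 11.32, 11.21 and 11.30 in anti-miR-21, without overlap (log2 difference -0.20 ± 0.055 SE, limma adjusted p = 0.131). MRPS34, a mitochondria-specific protein needed for a stable small subunit, and MRPS2, a homologue of a bacterial protein, each had a log2 difference of -0.17 (limma adjusted p = 0.24 and 0.208). MRPS2 lies just outside the 10 lowest and is named after its values were seen.

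At the other end, MRPS9 and MRPS27 had the highest differences in the small subunit. MRPS9, a homologue of a bacterial protein, read 10.30, 10.33 and 10.29 in mock and 10.49, 10.36 and 10.44 in anti-miR-21 (log2 difference 0.12 ± 0.053 SE, limma adjusted p = 0.299). MRPS27, like PTCD3 a pentatricopeptide repeat protein, read 11.85, 11.91 and 11.96 in mock and 12.015, 12.003 and 12.050 in anti-miR-21. Its arrays did not overlap, but the difference of 0.12 ± 0.051 SE did not pass (limma adjusted p = 0.293). MRPS18B followed at 0.09 (limma adjusted p = 0.429), and MRPS5, MRPS31 and MRPS35 were between 0.03 and 0.04.

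The large subunit was represented by 50 genes, none of which passed. Of these, 45 had a negative log2 difference, the median was -0.07 and the range -0.24 to 0.17, and at an unadjusted p under 0.05 there were 6 lower (12%) and 1 higher (2%), against 11.3% and 6.84% of all genes. MRPL16, a homologue of a bacterial protein near the peptidyl transferase centre, had the lowest value. It read 11.66, 11.89 and 11.86 in mock and 11.65, 11.50 and 11.55 in anti-miR-21. The groups barely separated, as mock replicate 1 was only just above anti-miR-21 replicate 1, and the log2 difference was -0.24 ± 0.078 SE (limma adjusted p = 0.189).

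MRPL14, MRPL44 and MRPL43 followed. MRPL14, on the face that joins the small subunit, read 12.91, 13.03 and 13.08 in mock and 12.88, 12.72 and 12.80 in anti-miR-21 (log2 difference -0.21, limma adjusted p = 0.185). MRPL44, which has a ribonuclease III-like fold and is mutated in a cardiomyopathy, read 11.25, 11.34 and 11.39 in mock and 11.19, 11.06 and 11.12 in anti-miR-21 (log2 difference -0.20, limma adjusted p = 0.162). MRPL43, found only in mitochondria, was also at -0.20 (limma adjusted p = 0.22), and MRPL54 at -0.18 (limma adjusted p = 0.364). In the first 3 of these the groups did not overlap, by margins smaller than the spread among the mock arrays.

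MRPL1, whose bacterial homologue forms a mobile stalk where spent transfer RNA leaves, had the highest value of all members. It read 11.60, 11.69 and 11.62 in mock and 11.91, 11.73 and 11.78 in anti-miR-21, without overlap (log2 difference 0.17 ± 0.063 SE, 95% interval 0.02 to 0.32, limma adjusted p = 0.226). The next in the large subunit, MRPL19, MRPL3 and MRPL39, lay between 0.02 and 0.04. For 79 member genes, all those that did not pass, the 95% interval of the log2 difference lay within 0.5 of zero on both sides.

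**Figure D2:**
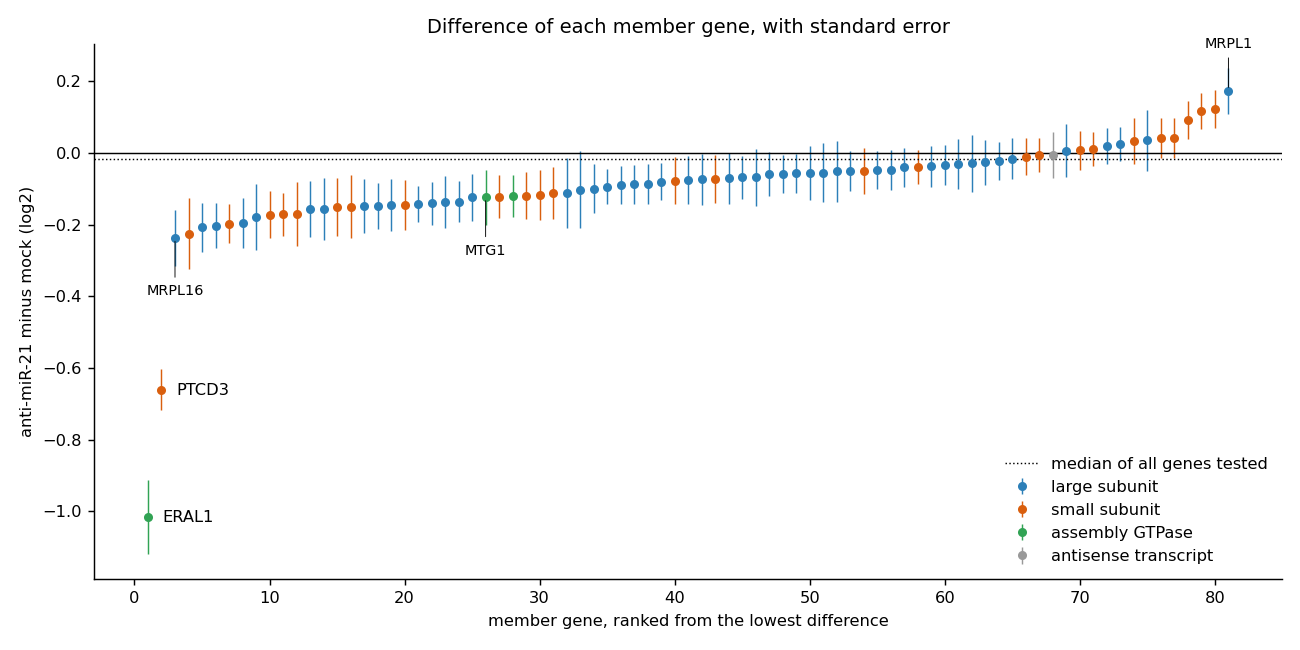
Difference between anti-miR-21 and mock (y axis, log2) for the 81 kept member genes, ranked from the lowest (x axis) and coloured by role. Bars show the standard error of the limma fit, and the dotted line the median of all genes tested, -0.02. ERAL1 and PTCD3 stand apart at -1.02 and -0.66, while all others lie between -0.24 and 0.17.

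The members beside ERAL1 and PTCD3 were mostly a little lower with anti-miR-21. Over all 81 member genes, ERAL1 and PTCD3 included, 68 (84.0%) had a negative log2 difference, against 56.7% of all genes tested. The median was -0.08 against -0.02. Those figures take only the brightest probe set of each gene. Counted by probe set, 95 of the 131 kept member probe sets were negative. The same share over all kept probe sets was not counted. In the comparison lists described below, 83.8% of nuclear-encoded oxidative phosphorylation genes and 68.6% of cytosolic ribosomal protein genes were negative. Arrays did not overlap and were lower in 15 members (18.5%), against 15.1% of all genes. Besides those described, these were MRPL22, MRPL23, MRPL28, MRPL32, MRPL33 and MRPL34. They did not overlap and were higher in 3 members (3.7%), namely MRPL1, MRPS9 and MRPS27, against 10.4% of all genes. Homologues of bacterial proteins, 44 genes over both subunits, had a median of -0.09, and the 32 mitochondria-specific proteins one of -0.05. These medians were -0.088 and -0.054 in the large subunit but -0.077 and -0.082 in the small subunit. No test was made of these medians, since the members of a complex are not independent replicates.

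The small shift was not even across arrays. Relative to the mock mean of each gene, the median over the 81 members was -0.07, 0.02 and 0.04 in the mock arrays, in the order of their replicate numbers. In the anti-miR-21 arrays that median was -0.02, -0.14 and -0.08. Mock replicate 1 was thus lower than anti-miR-21 replicate 1, and the groups overlapped. In mock replicate 1, 67 of the 81 members lay below their mock mean, compared with 51, 71 and 66 in the anti-miR-21 arrays. Of all 10848 genes tested, 5710 lay below it in mock replicate 1, and 6173, 6179 and 5844 in the anti-miR-21 arrays. The median log2 difference of the members ran from -0.11 with mock replicate 1 left out to -0.05 when the second anti-miR-21 array was left out.

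Cytosolic ribosomal proteins and nuclear-encoded subunits of oxidative phosphorylation, lists written down for comparison, shared the low position of mock replicate 1. Its median was -0.06 in both lists. In the anti-miR-21 arrays the 51 cytosolic ribosomal proteins had medians of 0.01, -0.04 and -0.002, and the 68 oxidative phosphorylation genes -0.002, -0.08 and -0.04. Over all genes tested the array medians ran from -0.03 to 0.01. The part that differences between arrays play in the shift of the members was not tested.

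**Figure D3:**
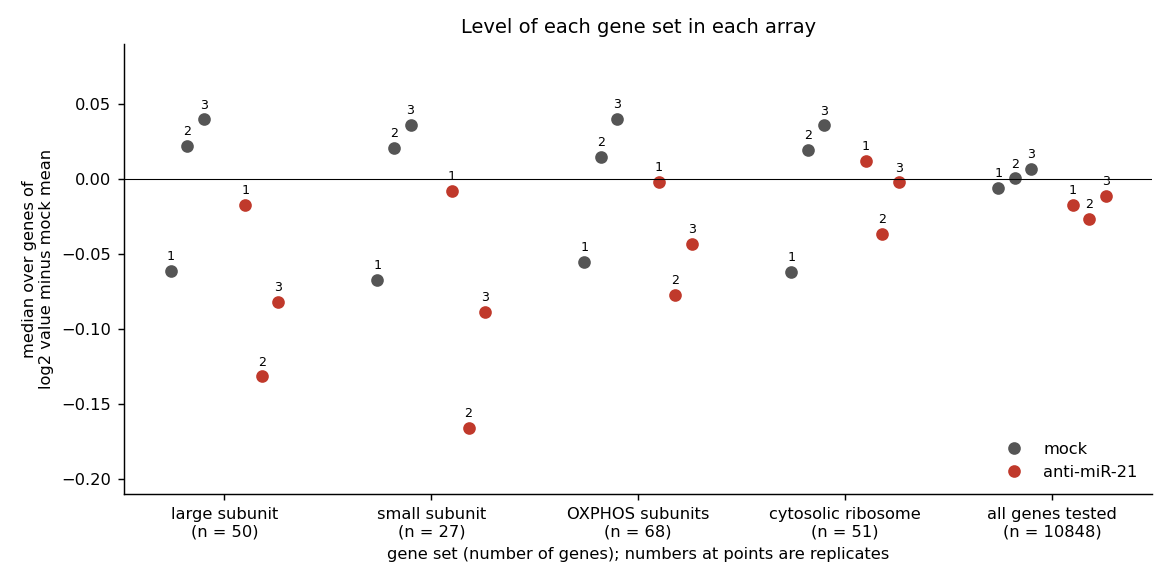
Median over genes of the log2 value minus the mean of the mock arrays (y axis), for each array and gene set (x axis), with mock in grey, anti-miR-21 in red and replicate numbers at the points. In both mitochondrial subunits mock replicate 1 lies below anti-miR-21 replicate 1, and anti-miR-21 replicate 2 is lowest.

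Among the 81 kept genes, 30 had more than 1 kept probe set, up to 5. In 13 of them all kept probe sets had a negative log2 difference, in 4 all were positive and in 13 the signs were mixed. PTCD3 had the widest spread, from -0.82 to -0.07. MRPS23 came next, with a bright probe set at -0.11, near 13.5, and a dim one at 0.30, whose arrays ran from 6.34 to 6.76 in mock and from 6.56 to 7.15 in anti-miR-21 (limma adjusted p = 0.465 and 0.421). MRPS15 followed. Its brightest probe set was at -0.01, while a dim one, at 4.59, 6.38 and 6.10 in mock and 6.47, 5.34 and 6.08 in anti-miR-21, was at 0.27 ± 0.50 SE (limma adjusted p = 0.815). The spread among arrays of that probe set was larger than its difference. The 25 member probe sets below the limit had means of 1.75 to 3.49 and were not tested.

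**Figure D4:**
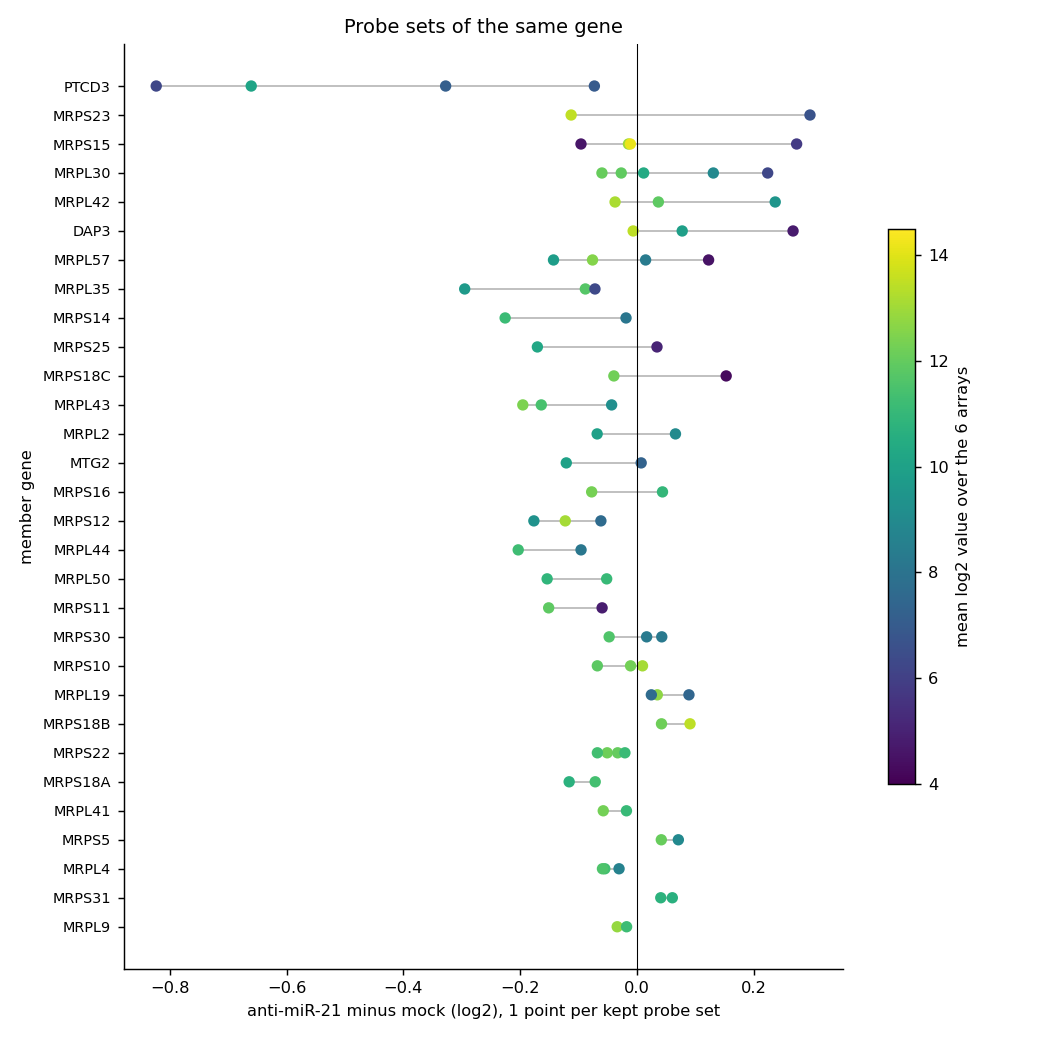
Difference between anti-miR-21 and mock (x axis, log2) for each kept probe set of the 30 member genes that have several (y axis), coloured by mean log2 value. PTCD3 spans -0.82 to -0.07, all negative, whereas the wide spreads of MRPS23, MRPS15 and DAP3 each rest on a dim probe set. MRPL42 spans -0.04 to 0.24, and its highest probe set, with means of 9.38 in mock and 9.61 in anti-miR-21, is not dim.

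Other factors that build or modify the mitochondrial ribosome did not pass. Of 23 kept assembly and ribosomal RNA modification factors, none was higher or lower, 17 had a negative log2 difference and the median was -0.07. MTERF4, which brings a ribosomal RNA methyltransferase to the large subunit, was at -0.23 and METTL15, a methyltransferase of the small subunit RNA, at 0.13 (limma adjusted p = 0.241 and 0.331). At an unadjusted p under 0.05 there was 1 lower (4.35%), MTERF4, and none higher, against 11.3% and 6.84% of all genes. Of 4 genes listed as proteins of this ribosome under other symbols, GADD45GIP1, CHCHD1, OXA1L and LACTB, none passed. The list was kept as written, although OXA1L and LACTB are not ribosome proteins. LACTB alone was lower at an unadjusted p under 0.05 (1 of 4, or 25%), against 11.3% of all genes. GADD45GIP1, a large subunit protein, read 10.85, 10.84 and 10.86 in mock and 10.78, 10.48 and 10.73 in anti-miR-21 (log2 difference -0.19, limma adjusted p = 0.305). LACTB, once assigned a mitochondrial ribosome symbol but known as a protease-like filament protein, was at -0.25 (limma adjusted p = 0.126).

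Among 18 kept translation factors and proteins that stabilise mitochondrial messenger RNA, none passed, the median was 0.06 and 8 were negative. MTRES1, which rescues stalled mitochondrial ribosomes, read 9.52, 9.42 and 9.32 in mock and 9.22, 9.07 and 9.06 in anti-miR-21 (log2 difference -0.30, limma adjusted p = 0.0976). MRRF, the ribosome recycling factor, was at -0.37, also without overlap between groups (limma adjusted p = 0.118). At an unadjusted p under 0.05 there were 3 lower (16.7%) and 1 higher (5.56%), against 11.3% and 6.84% of all genes.

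Of 14 kept genes of mitochondrial DNA transcription and maintenance 1 fell (7.14%) and none rose, against 1.22% lower and 0.913% higher of all genes. The list had a median log2 difference of -0.02. At an unadjusted p under 0.05, 1 was lower (7.14%) and 2 were higher (14.3%), against 11.3% and 6.84% of all genes. The gene that fell was TEFM, the elongation factor of the mitochondrial RNA polymerase, which fell 1.55-fold. It read 10.61, 10.60 and 10.60 in mock and 10.12, 9.91 and 9.89 in anti-miR-21, so the mock arrays were almost equal and all were above the others. The log2 difference was -0.63 ± 0.070 SE (limma adjusted p = 0.0117). A dim second TEFM probe set, from 4.95 ± 0.23 to 5.54 ± 0.42 (SD, n = 3), went the other way without passing (log2 difference 0.58, limma adjusted p = 0.232). With both averaged the difference was -0.02 (limma adjusted p = 0.916). Leaving out mock replicate 2 ended the call of TEFM (limma adjusted p = 0.0674), as did leaving out the second or the third anti-miR-21 array (limma adjusted p = 0.0609 and 0.0578).

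POLG2, the accessory subunit of the mitochondrial DNA polymerase, was at 0.20 without passing (limma adjusted p = 0.131). TFAM, which packages mitochondrial DNA and activates its transcription, had probe sets that went apart, and is named after its values were seen. Its 3 brighter probe sets had log2 differences of 0.19, 0.19 and 0.21 and did not pass (limma adjusted p = 0.199, 0.229 and 0.122). The dimmest, 238443_at, fell 1.53-fold, from 8.75, 8.81 and 8.77 in mock to 8.08, 8.08 and 8.33 in anti-miR-21 (limma adjusted p = 0.0175).

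Of 10 kept nuclear regulators of mitochondrial genes 1 rose and none fell, against 0.913% higher and 1.22% lower of all genes. The list had 3 negative differences and a median of 0.05. At an unadjusted p under 0.05, 2 were higher (20%) and none lower, against 6.84% and 11.3% of all genes. GABPB1, a subunit of the ETS-family factor GABP, which binds many promoters of mitochondrial ribosome genes, rose 1.30-fold. It read 10.70, 10.69 and 10.59 in mock and 11.03, 11.11 and 10.98 in anti-miR-21, without overlap (log2 difference 0.38 ± 0.059 SE, limma adjusted p = 0.0304). Its second probe set was at 0.20 (limma adjusted p = 0.148). The call of GABPB1 was lost with any 1 of the 6 arrays left out, with log2 differences of 0.34 to 0.41 and limma adjusted p values of 0.0551, 0.113 and 0.0869 for the mock arrays and 0.0604, 0.123 and 0.091 for the anti-miR-21 arrays, in the order of their numbers. CREB1, a transcription factor activated by cyclic AMP, was at 0.13 (limma adjusted p = 0.265).

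Nuclear-encoded subunits of oxidative phosphorylation, the complexes that need the products of this ribosome, did not pass as single genes. Of 68 kept genes none was higher or lower, 57 had a negative log2 difference and the median was -0.04. Arrays that did not overlap were lower in 5 of them (7.35%) and higher in 1 (1.47%), both below the 15.1% and 10.4% of all genes. NDUFA8, a subunit of complex I, had the smallest p, at 11.59, 11.73 and 11.76 in mock and 11.38, 11.09 and 11.28 in anti-miR-21 (log2 difference -0.44 ± 0.089 SE, limma adjusted p = 0.0653). It passed with the limit on dim probe sets at 6 (limma adjusted p = 0.0439). At an unadjusted p under 0.05 it was the only one of the 68 (1.47%), against 11.3% lower and 6.84% higher of all genes. NDUFV3, another subunit of complex I, was at -0.16 (limma adjusted p = 0.291).

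Cytosolic ribosomal proteins, whose ribosome translates nuclear messages, were near zero. Of 51 kept genes none passed, also at an unadjusted p under 0.05, the median was -0.01 and the range -0.08 to 0.03. RPS9 and FAU were at -0.08 and -0.06 (limma adjusted p = 0.503 and 0.624). A second probe set of RPS24, named after its values were seen, had group means of 8.92 ± 0.15 and 10.01 ± 0.34 (SD, n = 3). It rose 2.12-fold (limma adjusted p = 0.0304). The brightest probe set of RPS24, at 15.4 in both groups, had a log2 difference of 0.00 (limma adjusted p = 0.976).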

How the data were processed

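The authors deposited log2 expression values for each probe set, and the submitters' processing notes name GCRMA for this step. That method subtracts a background predicted from probe sequence and makes the arrays' distributions alike, so dim probe sets crowd near a floor. No version of it is given in the sources used here, and no normalization was added. Control probe sets (62) were left out, and probe sets with a mean of at least 4 over the 6 arrays were kept. Genes were named from the platform annotation, and all 82 member symbols matched RefSeq unchanged by identifier.

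Differences, anti-miR-21 minus mock, were fitted without covariates by lmFit and eBayes of limma (version 3.58.1, R 4.3.3). The two-sided p values of all 22408 probe sets kept were adjusted together by the Benjamini-Hochberg method. The fit was tested on simulated data. A gene took the values of its brightest kept probe set. With 6 arrays, their number limits the precision.

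The members and lists were chosen with earlier results of these data known. Named genes were all probe sets of ERAL1, DAP3, PTCD3, MTG1 and MTG2, members past the threshold, the 10 highest and 10 lowest members, the 3 with the widest spread of probe sets, and in each list the genes past the threshold and the 2 with the smallest p. Alternatives varied the filter, scaling, variance model, averaging of probe sets, replicate number as a block, and each array left out.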

Additional observations from a re-analysis of the deposited data

How the results depend on the processing

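The 25 named member genes were each refitted under 13 alternatives, which gave 314 results with the same direction and side of the threshold, 1 lost call (ERAL1 without anti-miR-21 replicate 2) and 10 changes of sign, all in genes that did not pass. With probe sets averaged, DAP3 turned to 0.11, MRPS23 to 0.0921 and MRPS15 to 0.0382. With 1 array left out, log2 differences ran from -0.0251 to 0.00865 for DAP3, -0.0486 to 0.112 for MRPL19, -0.0157 to 0.0691 for MRPS35, -0.0038 to 0.0453 for MRPL39 and -0.0351 to 0.0157 for MRPS15.

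With 1 array left out, 1 to 2 member genes and 1 to 3 member probe sets were lower and none higher, and 96 to 572 probe sets passed in all, against 486. The lowest counts were 97 and 185 when mock replicates 2 and 3 were left out in turn, and 106 and 96 when the second and the third anti-miR-21 array were. The median of the members lay between -0.11 and -0.05. The counts of transcription genes lower (0 to 1) and of regulators higher (0) follow TEFM and GABPB1. With probe sets averaged, transcription genes lower fell to 0 and cytosolic ribosomal proteins higher went from 0 to 1. Oxidative phosphorylation genes lower went from 0 to 1, NDUFA8, with averaging, the filter at 6, and the trend and robust variance model.

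Deviations of same-numbered arrays from their group means correlated at -0.36, -0.27 and -0.002. With 3 arrays per group, these values cannot settle whether the replicate numbers pair the samples. With the replicate number as a block, 91 probe sets passed in all. ERAL1 and PTCD3 stayed lower (limma adjusted p = 0.0278 and 0.0489), and 0 transcription genes were lower and 0 regulators higher, with TEFM at 0.0597 and GABPB1 at 0.113. The cause of these changes was not tested. GCRMA's own steps could not be varied, since the scanner values were not used here. Low signal limits what can be said of the dimmest probe sets of DAP3, MRPS15, MRPS23 and TEFM.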
